A study of Mus musculus with 10 samples.

Results

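The genes described here encode the proteins of the mitochondrial ribosome, as measured in the whole adrenal glands of 10 mice, 5 labelled as Crem knockouts (KO) and 5 as wild type (WT). They were chosen by symbol alone: a probe paired with 1 gene whose symbol begins with Mrpl or Mrps and a number, with the probe of highest mean kept where a gene had several. The rule gave 73 genes of the 19661 genes measured by a single-gene probe, 46 named for the large subunit (Mrpl) and 27 for the small subunit (Mrps). Mrpl47 alone had 2 measured probes. Mrpl53 was read only by a probe shared with another gene, and the probes of Mrpl23, Mrpl48, Mrps33 and Mrps36 hold no value, so these 5 genes are not analysed here. All 73 genes are listed as protein coding by RefSeq.

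All mice had a 129Pas x C57Bl/J background, were 8 weeks old and untreated, and were killed at circadian time 0 h, when the lights came on. The KO mice are labelled Crem-/-, with no tissue-specific driver named, and the WT mice carried no named allele. CREM is a transcription factor that binds cyclic AMP response elements. The labels give 4 batches without saying what a batch is. Batch 1 held KO 1, KO 2 and WT 1, batch 2 KO 3 and KO 4, batch 3 KO 5, WT 2, WT 3 and WT 4, and batch 4 WT 5. Replicate numbers follow the order of deposit and pair nothing.

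The mitochondrial ribosome translates the few proteins encoded by mitochondrial DNA, which are core subunits of the respiratory chain and ATP synthase. Its RNA comes from the mitochondrial genome, but its proteins are encoded in the nucleus, made in the cytosol and imported. Some have bacterial homologues and others arose within mitochondria. The large subunit joins amino acids and the small subunit reads the messenger RNA. In the adrenal cortex mitochondria also carry out the first and the last steps of steroid hormone synthesis.

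Because CREM acts at promoters, 4 promoter windows are shown before the values. Of the 73 genes, 64 had a window in the RefSeq promoter table (build GRCm38.p6), which runs from 250 bases before to 50 bases after an annotated start and is 300 bases long. The windows of Mrpl49 and Mrpl16 are shown because they alone among the 64 held the full element TGACGTCA, that of Mrps12 because the gene was among the 3 of widest spread over the arrays, and that of Mrpl1 because its order over the arrays was opposite to that of most of the others. Each is written from its 5′ end, and capitals mark every match to the motifs named below, on either strand.
Mrpl49 (chr19:6057706-6058005, minus strand): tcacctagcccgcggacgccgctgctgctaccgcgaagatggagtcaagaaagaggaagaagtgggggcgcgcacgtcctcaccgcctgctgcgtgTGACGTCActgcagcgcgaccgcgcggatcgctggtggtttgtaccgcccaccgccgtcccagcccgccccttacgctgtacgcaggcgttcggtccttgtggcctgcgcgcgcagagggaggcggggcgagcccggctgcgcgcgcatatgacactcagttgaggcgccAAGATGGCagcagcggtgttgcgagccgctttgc
Mrpl16 (chr19:11770165-11770464, plus strand): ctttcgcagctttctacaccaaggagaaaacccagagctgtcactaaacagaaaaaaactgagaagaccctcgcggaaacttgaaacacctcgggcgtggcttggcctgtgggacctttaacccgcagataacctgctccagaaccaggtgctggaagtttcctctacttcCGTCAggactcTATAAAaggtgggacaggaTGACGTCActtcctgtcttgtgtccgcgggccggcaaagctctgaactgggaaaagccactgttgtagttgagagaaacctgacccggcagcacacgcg
Mrps12 (chr7:28741772-28742071, minus strand): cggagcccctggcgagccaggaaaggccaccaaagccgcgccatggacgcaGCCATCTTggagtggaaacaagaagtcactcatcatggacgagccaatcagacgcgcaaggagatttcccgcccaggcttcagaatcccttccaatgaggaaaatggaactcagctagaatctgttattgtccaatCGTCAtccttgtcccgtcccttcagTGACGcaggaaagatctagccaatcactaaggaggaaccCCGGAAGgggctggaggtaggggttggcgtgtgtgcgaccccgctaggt
Mrpl1 (chr5:96209865-96210164, plus strand): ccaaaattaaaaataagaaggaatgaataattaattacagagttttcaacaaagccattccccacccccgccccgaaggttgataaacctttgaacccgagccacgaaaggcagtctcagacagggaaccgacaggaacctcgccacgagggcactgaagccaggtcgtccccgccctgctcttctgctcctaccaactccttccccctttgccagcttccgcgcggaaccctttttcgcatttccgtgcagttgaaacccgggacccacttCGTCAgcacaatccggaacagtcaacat
In Mrpl49 the full element covered bases 97 to 104 of the window and the YY1 motif bases 267 to 274. In Mrpl16 the full element covered bases 202 to 209, with a TATA motif at 183 to 188.

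A set of 6 short motifs was searched on both strands, and each share is a description with no test. The full cyclic AMP response element, TGACGTCA, was in the windows of 2 of the 64 genes (3.12%) and of 549 of all 27025 genes with a window (2.03%). Its 5-base part TGACG, which overlaps the full element, was in 28 windows (43.8%, against 23% of all genes). The ETS motif CCGGAAG was in 23 (35.9%, against 9.93%), YY1's AAGATGGC in 12 (18.8%, against 3.19%) and NRF1's GCGCATGC in 8 (12.5%, against 3.05%). TATAAA was in 4 (6.25%, against 15.7%). For the ETS motif, the large and small subunit genes stood at 13 of 40 and 10 of 24, and for NRF1 at 7 of 40 and 1 of 24.

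The values are log2 levels after robust multi-array averaging (RMA), so a difference of 1 is a doubling. They are comparable between arrays for 1 probe, not between probes. Array medians lay between 7.17 and 7.25 over the 25664 probes tested. Crem itself was at 7.38, 7.97, 6.86, 6.84 and 7.77 on KO 1 to KO 5 and at 7.45, 7.23, 8.14, 7.62 and 7.27 on WT 1 to WT 5. The groups overlapped, the difference, KO minus WT, was -0.18 ± 0.26 (SE), and it did not pass the limma test (exact permutation p = 0.516). With batch as a block it turned to 0.16 ± 0.26 (SE). The sources used here do not say which exons the probe covers relative to the deletion, so Crem does not check the labels, and groups are named as labelled. The mean of the 11 measured cortex markers, among them Cyp11a1, the first enzyme of steroid synthesis, lay between 12.28 and 12.88. It was lowest on KO 3 (12.28) and KO 1 (12.36), and 12.7 to 12.88 in WT. On each of KO 3 and KO 1, 10 of the 11 markers were below their own mean over the 10 arrays. Markers of other tissue moved between arrays as well. The mean of 9 liver markers reached 12.73 on KO 1, while the WT arrays stayed between 7.23 and 8.31. The mean of 16 brown fat markers ran from 8.13 to 11.24 in KO, highest on KO 1, and from 8.35 to 9.95 in WT, and that of 11 chromaffin markers was 8.13 on KO 1, its lowest array, and 11.11 to 11.85 in WT. The lowest value of any of these markers was 5.005, in a brown fat marker, and RMA values carry no background level to set it against. In RNA from a whole gland, fewer cells of a type and less RNA per cell cannot be told apart.

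The levels of the mitochondrial ribosomal protein genes differed between single arrays. Each gene was set against its own mean over the 10 arrays, and the median of these deviations was taken over the 73 genes. For KO 1 to KO 5 in turn this median was 0.13, -0.31, 0.34, 0.21 and -0.35. For WT 1 to WT 5 it was 0.20, 0.09, -0.39, -0.18 and 0.22. Low and high arrays were thus found under both labels. The lowest and the highest array lay 0.73 apart, against 1.16 for 77 respiratory chain genes and 0.64 for 28 cytosolic ribosomal protein genes. The 0.15 for the median of all probes is no like measure, since quantile normalization holds all arrays close to 1 distribution. KO 3 was the highest array for 33 genes and WT 5 for 17. KO 2 was the lowest for 22, KO 5 for 19 and WT 3 for 18.

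**Figure D1:**
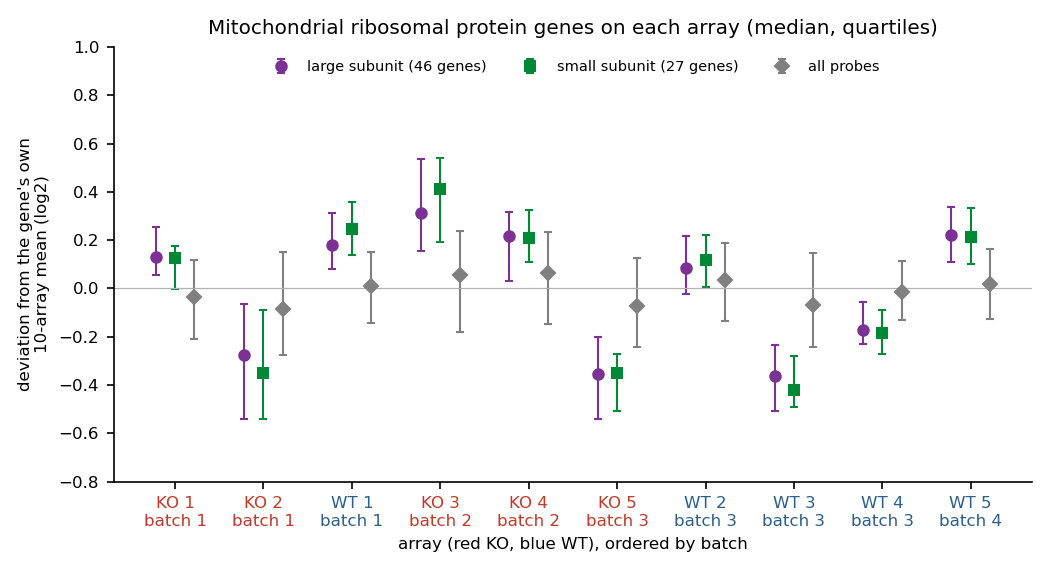
Median deviation of the large subunit genes, the small subunit genes and all probes from each gene's own 10-array mean, in log2 units, on each array ordered by batch. Bars span the quartiles over genes. Both subunits lie lowest on KO 2, KO 5 and WT 3 and highest on KO 3, while all probes stay between -0.09 and 0.06.

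The 2 subunits moved together. On KO 3 the large subunit median was 0.31 and the small subunit median 0.41, and on WT 3 they were -0.36 and -0.42. The large minus small difference lay between -0.10 on KO 3 and 0.07 on KO 2. It averaged -0.004 ± 0.06 over the KO arrays and -0.005 ± 0.05 over the WT arrays (SD, n = 5). Within single arrays the sign of the subunit medians was the same on all 10. KO 2, KO 5 and WT 3 were the 3 lowest arrays for 40 of the 73 genes (54.8%), 25 of 46 large and 15 of 27 small, and for 18.1% of all 19661 genes. On all 3 of these arrays 58 of the 73 genes (79.5%) were below their own mean, against 44.9% of all genes. Since the arrays were singled out by these levels, these counts are a description with no test. The 3 arrays lie in batches 1 and 3, which hold both genotypes.

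**Figure D2:**
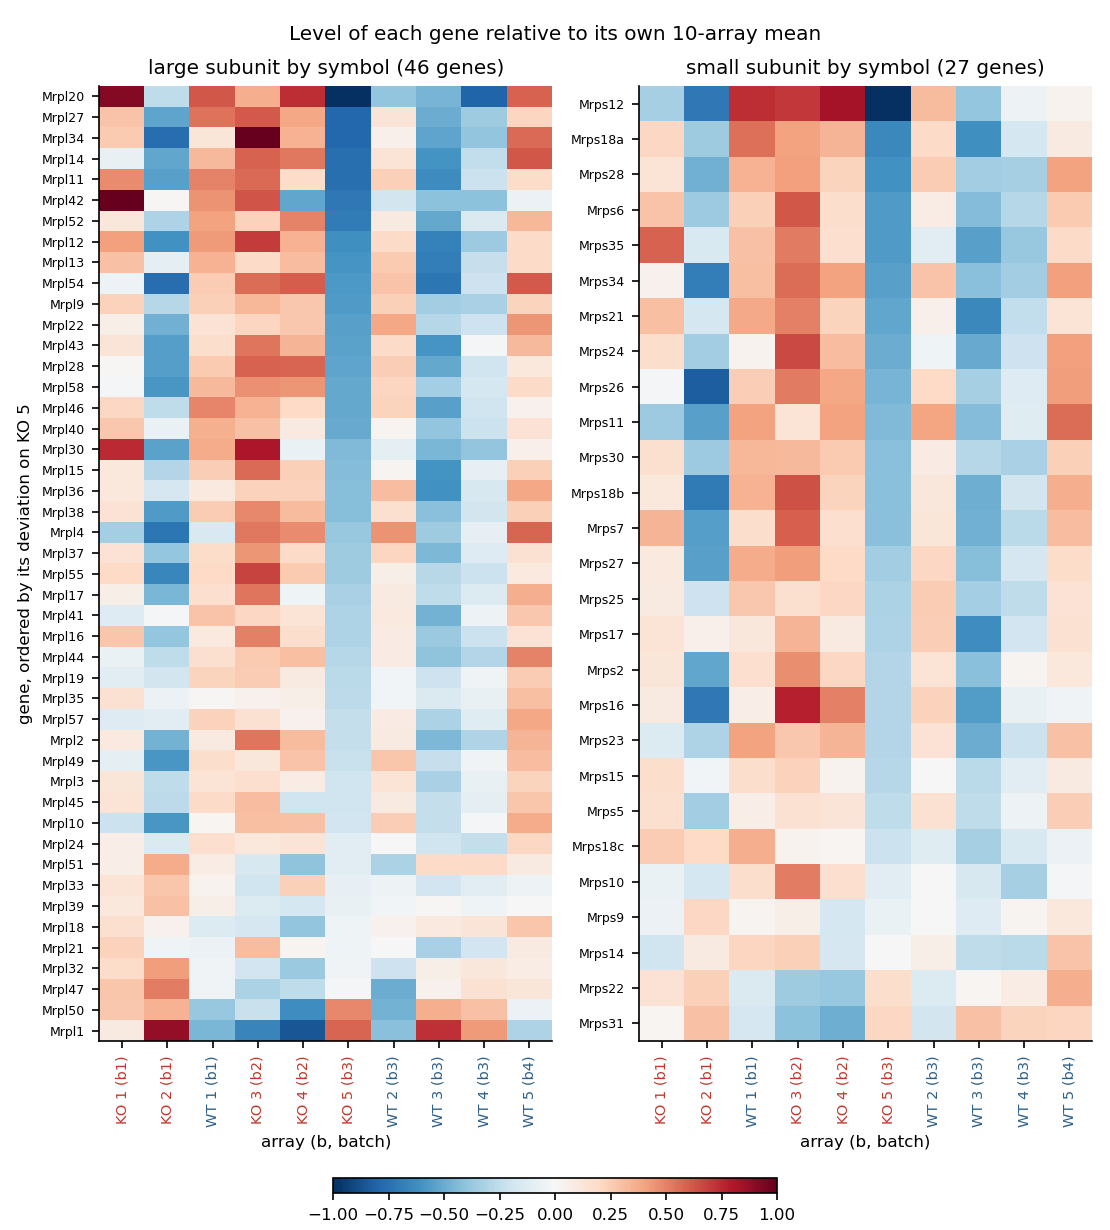
Deviation of each of the 73 genes from its own mean over the 10 arrays, in log2 units (red above, blue below), with large subunit genes on the left and small subunit genes on the right. Arrays are ordered by batch (b) and genes by their deviation on KO 5. Most rows are blue on KO 2, KO 5 and WT 3, and the rows at the bottom, Mrpl1 and Mrpl50 on the left and Mrps22 and Mrps31 on the right, run the other way.

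The spread over the 10 arrays differed widely between genes. Its SD ran from 0.11 to 0.75 with a median of 0.34, above the all-probe median of 0.25 for 54 of the 73 genes. The 2 medians are not like measures, since RMA compresses differences at low levels. The mean level of the 73 genes was 9.28 on KO 5 and 9.96 on KO 3, against 7.32 and 7.35 for all probes. Mrpl20, a large subunit protein with a bacterial homologue, had the widest spread (SD 0.75) and was at 10.12, 8.95, 9.57, 9.95 and 7.88 on KO 1 to KO 5 and at 9.83, 8.81, 8.74, 8.41 and 9.80 on WT 1 to WT 5. KO 5 was lowest and KO 1 highest, both under the KO label. Mrps12, a protein of the decoding centre, was at 8.96, 8.58, 9.996, 10.12 and 8.15 on KO 1 to KO 5 and at 10.03, 9.60, 8.90, 9.24 and 9.32 on WT 1 to WT 5 (SD 0.66). KO 3, KO 4 and WT 1 were all high, and KO 5 and KO 2 were low. Mrpl1, which forms the stalk near the tRNA exit site, was at 8.86, 9.65, 8.11, 7.91 and 9.35 on KO 1 to KO 5 and at 8.31, 8.35, 9.49, 9.20 and 8.46 on WT 1 to WT 5 (SD 0.62). There KO 2, WT 3 and KO 5 were the 3 highest arrays.

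The narrowest spreads were those of Mrps9, Mrpl39 and Mrpl35. Mrps9, a small subunit protein of the head region, was at 9.08, 9.35, 9.20, 8.97 and 9.08 on KO 1 to KO 5 and at 9.17, 9.15, 9.01, 9.17 and 9.24 on WT 1 to WT 5 (SD 0.11). Its arrays lay within 0.38 of each other and the groups overlapped throughout. Mrpl39 ranged from 11.03 to 11.50 (SD 0.13) and Mrpl35 from 9.70 to 10.25 (SD 0.15). In all, 10 genes had an SD under 0.2 and 23 an SD of 0.4 or more.

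Only 4 genes (5.48%, against 23.1% of all genes) were above their own mean on all of KO 2, KO 5 and WT 3. They were Mrpl1, Mrpl50, Mrps22 and Mrps31. Mrps31, a small subunit protein without a bacterial homologue, was at 8.95, 9.23, 8.52, 8.44 and 9.14 on KO 1 to KO 5 and at 8.76, 8.74, 9.22, 9.15 and 9.15 on WT 1 to WT 5. Its 3 highest arrays included KO 2 and WT 3, and KO 4 was lowest. Of the 73 genes, 9 were highest on KO 2, KO 5 or WT 3. Of these, Mrpl47 was read by 2 probes that ran opposite ways. The probe used here was highest on KO 2 (8.38), and the other was lowest on KO 2 (7.35), KO 5 (7.04) and WT 3 (7.001), so the order of this gene over the arrays is uncertain.

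The gene Clk1, which encodes a kinase of splicing factors and was looked at after the values were seen, was at 9.85, 11.69, 8.90, 8.28 and 12.11 on KO 1 to KO 5 and at 8.87, 8.84, 12.02, 10.66 and 9.09 on WT 1 to WT 5. KO 2, KO 5 and WT 3 were its 3 highest arrays, each at 11.69 or above, and every other array was at most 10.66. The same 3 arrays were the highest for 12.2% of all 19661 genes and for 2.74% of the 73. The part of the Clk1 difference between arrays in the levels of the ribosomal protein genes was not tested.

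**Figure D3:**
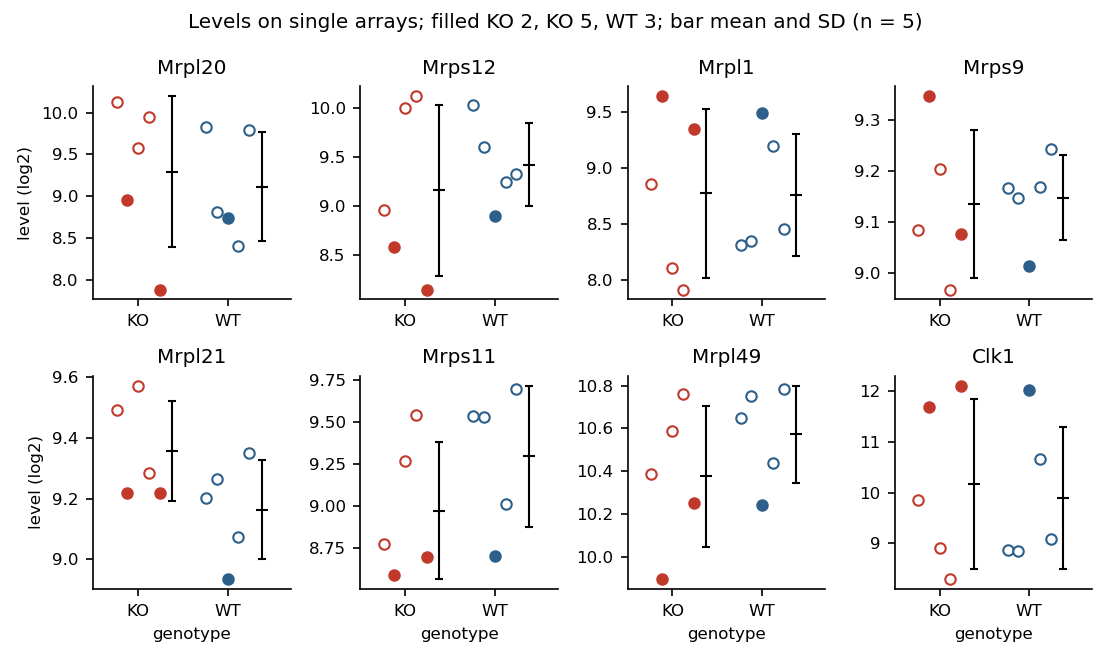
Log2 level on each array of the genes of widest spread (Mrpl20, Mrps12, Mrpl1), of a narrow spread (Mrps9), of small limma p in each direction (Mrpl21, Mrps11, Mrpl49) and of Clk1, by genotype. Filled points are KO 2, KO 5 and WT 3 and bars are the mean and SD of 5 arrays. KO and WT points overlap in all 8 genes, and the filled points lie high in Mrpl1 and Clk1.

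The comparison the study was built for asks what the absence of CREM changes. Over all 10 arrays, 0 of the 73 genes passed the limma test at an adjusted p under 0.05 (0% of all 25664 probes did), and 0 passed at an unadjusted p under 0.05, against 3.42% of all probes. No gene had KO and WT arrays that did not overlap, against 0.717% of all genes. Higher in KO on average were 31 genes, 21 large and 10 small, and 42 were lower. Over all probes 12666 were higher and 12998 lower. The median difference, KO minus WT, was -0.01 on the log2 scale for the 73 genes, -0.01 for the large and -0.02 for the small subunit, and -0.003 for all probes. It was -0.03 when each array was shifted to a common median and turned to 0.03, with 45 of 73 genes higher, when quantile normalization was repeated. With single arrays left out it ran from -0.10 (without WT 3) to 0.08 (without KO 5), and was above 0 without KO 2, KO 5, WT 1, WT 2 or WT 5. The 95% limma interval lay within 1 log2 unit of no difference for 70 genes and within 0.5 for 31, and for the other 42 it reached past 0.5 in at least 1 direction.

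The smallest p belonged to Mrpl21, a large subunit protein with a bacterial homologue. It was at 9.49, 9.22, 9.57, 9.29 and 9.22 on KO 1 to KO 5 and at 9.20, 9.26, 8.93, 9.07 and 9.35 on WT 1 to WT 5. The KO arrays KO 1 and KO 3 were highest and WT 3 lowest, the means were 9.36 ± 0.16 in KO and 9.16 ± 0.16 in WT (SD, n = 5), and the groups overlapped. The difference was 0.19 ± 0.11 (SE), with an adjusted limma p of 0.999 and a two-sided exact permutation p of 0.111 over the 252 choices of 5 arrays, of which the smallest possible is 0.00794. Mrpl33 differed by 0.15 ± 0.11 (SE) and Mrps35 by 0.23 ± 0.24 (SE). Mrps10 was at 0.13 ± 0.15 (SE), Mrps18c at 0.12 ± 0.14 (SE) and Mrpl30 at 0.21 ± 0.29 (SE). Of these 6, the sign turned with batch as a block in Mrps35, Mrps10, Mrps18c and Mrpl30.

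On the lower side the smallest p belonged to Mrps11, a small subunit protein of the platform with a bacterial homologue. It was at 8.77, 8.59, 9.27, 9.54 and 8.70 on KO 1 to KO 5 and at 9.54, 9.53, 8.70, 9.01 and 9.70 on WT 1 to WT 5. Both groups held arrays from 8.70 up to 9.54, and the means were 8.97 ± 0.41 in KO and 9.30 ± 0.42 in WT (SD, n = 5). The difference was -0.32 ± 0.24 (SE), with a 95% interval of -0.85 to 0.21 and an exact permutation p of 0.246. Mrpl49, whose window held the full element shown above, was at 10.39, 9.90, 10.59, 10.76 and 10.25 on KO 1 to KO 5 and at 10.65, 10.75, 10.24, 10.44 and 10.78 on WT 1 to WT 5. KO 2 was lowest and the difference was -0.20 ± 0.17 (SE) (exact permutation p = 0.286). Mrpl16, with the other full element, was at 10.22, 9.56, 10.45, 10.12 and 9.63 on KO 1 to KO 5 and at 10.05, 10.02, 9.58, 9.73 and 10.09 on WT 1 to WT 5, with KO 3 highest and KO 2 lowest. Its difference, 0.10 ± 0.19 (SE), had the opposite sign (exact permutation p = 0.587), which turned with batch as a block (-0.15 ± 0.21, SE) and without KO 3. Mrpl18 differed by -0.16 ± 0.12 (SE), Mrpl22 by -0.19 ± 0.21 (SE), Mrps31 by -0.15 ± 0.18 (SE) and Mrpl10 by -0.16 ± 0.19 (SE), with exact permutation p values of 0.222, 0.421, 0.429 and 0.452. None of the 12 genes passed the limma or the permutation test.

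Batches are spread unevenly over the genotypes, so the comparison was repeated with batch as a block, where batches 1 and 3 alone carry the difference. There 62 of 73 genes were lower in KO, as were 15107 of the 25664 probes. The median of the 73 genes was -0.27 (large -0.27, small -0.26), against -0.06 for all probes. It was -0.32 within batch 1 (all probes -0.05), where 1 WT array stands against 2 KO arrays, and -0.22 within batch 3 (all probes -0.06), where 1 KO array stands against 3 WT arrays. With batch as a random block it was -0.07. Still 0 genes passed at an adjusted p under 0.05 (0% of all probes). At an unadjusted limma p under 0.05, 6 of 73 genes were lower (8.22%), against 5.38% of all probes, and 0 were higher, against 1.8% of all probes. At the same threshold 10 of 28 cytosolic ribosomal protein genes and 3 of 77 respiratory chain genes were lower. Of the 3 KO arrays in these batches, KO 2 and KO 5 are among the low arrays, and their part in this shift cannot be told apart from genotype within the block.

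The 6 genes were Mrps12, Mrps11, Mrpl14, Mrpl27, Mrpl52 and Mrpl58. Mrps12 differed most, by -1.18 ± 0.20 (SE) with batch as a block (limma, adjusted p = 0.582), by -1.26 within batch 1 and by -1.10 within batch 3. Over all 10 arrays its difference was -0.26 ± 0.39 (SE) with an interval of -1.11 to 0.59. This difference turned to 0.14 without KO 2, KO 5 and WT 3, its lowest arrays. In batch 1, KO 1 (8.96) as well as KO 2 (8.58) lay below WT 1 (10.03). KO 1 was also the array of highest liver and lowest chromaffin marker means, and the part of other tissue was not tested. Mrpl27, which lies near the site of peptide bond formation, differed by -0.60 ± 0.25 (SE) and Mrpl58, a release factor-like protein that frees stalled ribosomes, by -0.51 ± 0.20 (SE) with batch as a block.

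**Figure D4:**
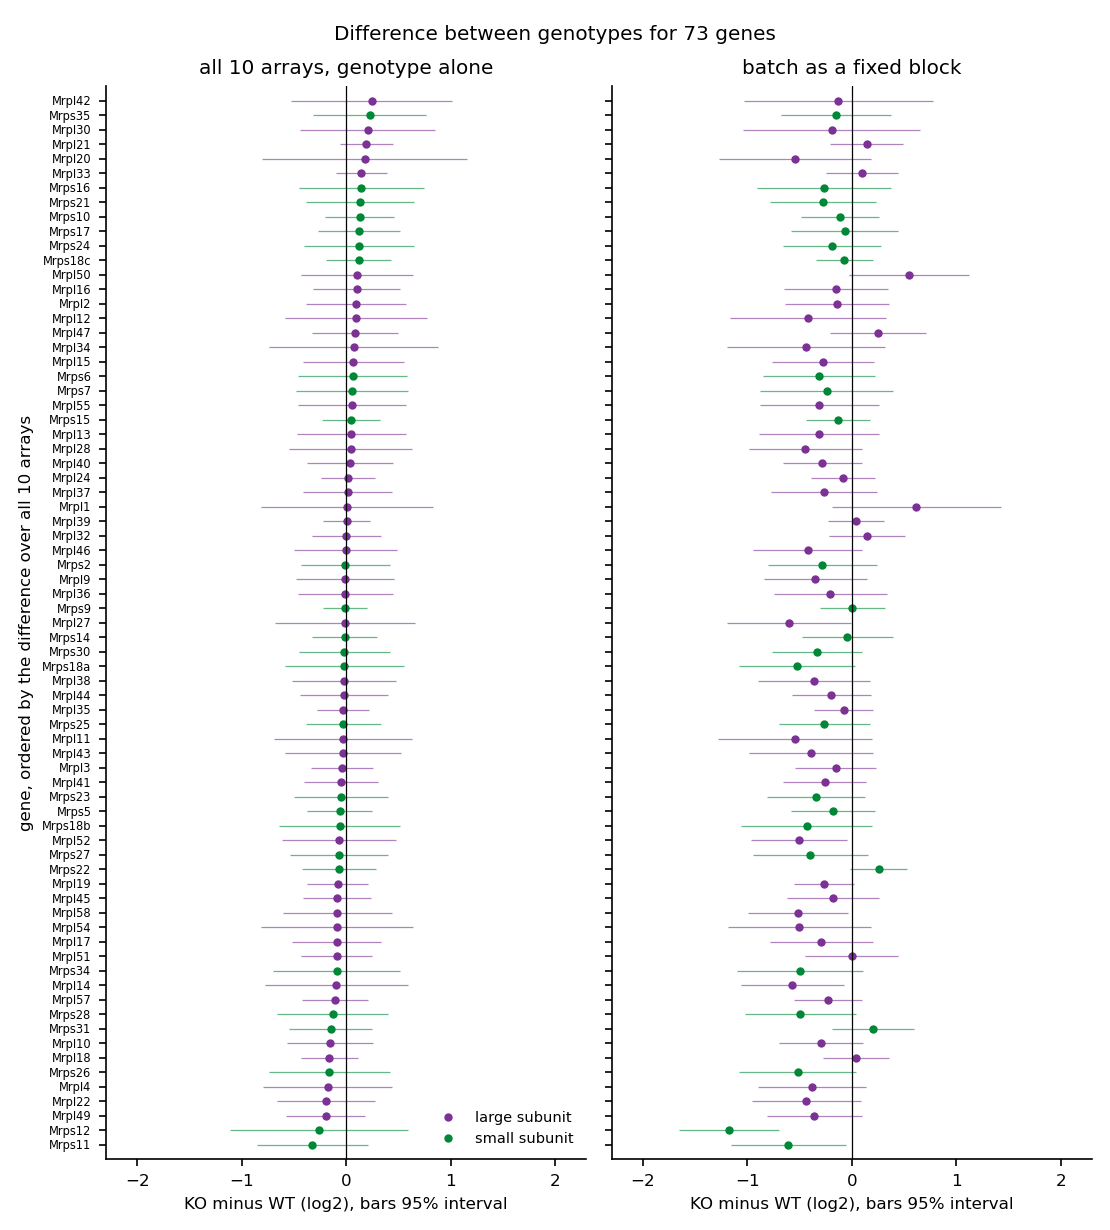
Difference KO minus WT in log2 units for the 73 genes with 95% limma intervals, over all 10 arrays with genotype alone (left) and with batch as a fixed block (right), genes in the same order in both. On the left 31 points lie above 0 and 42 below and all intervals cross 0. On the right 62 points lie below 0.

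Other choices of arrays moved the median as well. Without KO 1 and KO 3, the arrays of highest brown fat and liver markers, it was -0.18 with 10 of 73 genes higher (all probes -0.03). Without KO 2, KO 5 and WT 3 it was 0.11 with 54 of 73 higher (all probes 0.02). No gene passed at an adjusted p under 0.05 in either choice. KO 2, KO 5 and WT 3 had the lowest medians of the 73 genes, and more of them are KO than WT. They were left out as the 3 arrays of highest Clk1 level, after the values were seen, so the rise is no test.

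Sorted by role, the proteins of the stalk and its base, which bind the translation factors, were low on KO 2, KO 5 and WT 3. Mrpl12 was at 10.27, 9.26, 10.56, 10.21 and 9.25 on KO 1 to KO 5 and at 10.28, 10.05, 9.18, 9.49 and 10.05 on WT 1 to WT 5, with those 3 arrays at 9.26 or below and the other 7 at 9.49 or above. Mrpl11, its neighbour at the stalk base, was at 10.96, 9.94, 11.04, 10.66 and 9.73 on KO 1 to KO 5 and at 10.98, 10.72, 9.86, 10.27 and 10.67 on WT 1 to WT 5, with the same 3 arrays lowest. Mrpl10, which anchors the stalk, was at 10.28, 9.91, 10.79, 10.79 and 10.30 on KO 1 to KO 5 and at 10.51, 10.74, 10.26, 10.48 and 10.87 on WT 1 to WT 5. There KO 2 was lowest, and WT 3, KO 1 and KO 5 followed at 10.26 to 10.30.

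Among the proteins around the catalytic centre and the exit tunnel, Mrpl2 ranged from 10.12 to 11.13, Mrpl3 from 9.73 to 10.28, Mrpl4 from 9.15 to 10.45, Mrpl22 from 7.52 to 8.51, Mrpl24 from 10.97 to 11.41 and Mrpl27 from 8.36 to 9.76 over the 10 arrays. Mrpl24 had an SD of 0.16 and Mrpl27 one of 0.50. Mrpl45, which holds the ribosome to the inner membrane, had an SD of 0.22, and Mrpl44, with a fold like that of RNase III, was at 9.48, 9.30, 9.81, 9.85 and 9.26 on KO 1 to KO 5 and at 9.71, 9.63, 9.15, 9.26 and 10.05 on WT 1 to WT 5. WT 5 was its highest array and WT 3 its lowest, so the WT group alone spanned its whole range.

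Of the small subunit proteins of decoding and early assembly, Mrps7 was at 10.82, 9.93, 11.08, 10.65 and 10.07 on KO 1 to KO 5 and at 10.66, 10.60, 10.002, 10.21 and 10.79 on WT 1 to WT 5, with KO 2, WT 3 and KO 5 lowest. Mrps2 was at 9.32, 8.68, 9.66, 9.41 and 8.90 on KO 1 to KO 5 and at 9.36, 9.34, 8.78, 9.23 and 9.30 on WT 1 to WT 5. Its WT arrays lay between 9.23 and 9.36 except WT 3, at 8.78. Mrps5 had an SD of 0.21, Mrps16 of 0.45 and Mrps34, a protein without a bacterial homologue, of 0.46. Mrps22, which also lacks one, was at 9.54, 9.64, 9.04, 9.02 and 9.57 on KO 1 to KO 5 and at 9.25, 9.27, 9.42, 9.48 and 9.76 on WT 1 to WT 5. KO 3 and KO 4 were its lowest arrays and WT 5 its highest.

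Paralogues did not all move alike. Mrps18a, Mrps18b and Mrps18c descend from 1 bacterial protein, and the first sits in the large subunit despite its name. Mrps18a was at 10.35, 9.79, 10.55, 10.48 and 9.50 on KO 1 to KO 5 and at 10.70, 10.33, 9.53, 9.97 and 10.23 on WT 1 to WT 5 (SD 0.42). Mrps18b had an SD of 0.43 and ranged from 9.93 to 11.27. Mrps18c was at 11.09, 11.04, 10.88, 10.86 and 10.62 on KO 1 to KO 5 and at 11.20, 10.72, 10.50, 10.69 and 10.78 on WT 1 to WT 5 (SD 0.22), with KO 2 among its 3 highest arrays, whereas KO 2 was the lowest array for Mrps18b. The pair Mrpl37 and Mrps30, both in the large subunit, had an SD of 0.31 and 0.31. Placing each protein by its subunit in the solved structure (48 large, 25 small) gave medians of -0.01 and -0.02 for KO minus WT.

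The 47 genes with bacterial homologues and the 26 without followed the same arrays. Their medians ran from -0.37 (WT 3) to 0.40 (KO 3) and from -0.40 to 0.30, at WT 3 and KO 3 again. Higher in KO were 25 of 47 and 6 of 26, with median differences of 0.01 and -0.05, and with batch as a block 7 of 47 and 4 of 26, with medians of -0.27 and -0.28.

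Another 4 mitochondrial ribosomal proteins, with other symbols, were measured. Dap3, a GTP-binding protein of the small subunit, was at 9.50, 9.43, 9.85, 9.95 and 9.31 on KO 1 to KO 5 and at 9.95, 9.89, 9.34, 9.54 and 9.96 on WT 1 to WT 5. KO 5, WT 3, KO 2 and KO 1 were its lowest arrays. Gadd45gip1, a large subunit protein, ranged from 8.84 to 10.01, and Chchd1, in the small subunit, from 8.45 to 9.98, both lowest on KO 5. Ptcd3, a pentatricopeptide repeat protein of the small subunit, was at 8.96, 9.88, 8.65, 8.53 and 9.73 on KO 1 to KO 5 and at 8.88, 8.76, 9.60, 9.51 and 9.21 on WT 1 to WT 5. KO 2, KO 5 and WT 3 were its 3 highest arrays, as for Mrpl1. None of the 4 passed at an unadjusted p under 0.05 in the limma comparison of KO with WT, and their median difference was -0.07. With batch as a block the median was -0.43. There 1 of the 4, Gadd45gip1, was lower at an unadjusted limma p under 0.05, as were 5.38% of all probes. Its difference was -0.52 ± 0.19 (SE), with an adjusted limma p of 0.582.

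Other genes of mitochondrial translation were read from lists. Of 29 measured assembly factors, 12 were higher and 17 lower in KO with 0 called (limma, adjusted p under 0.05) and a median of -0.02. Their array medians ran from -0.40 on KO 2 to 0.24 on KO 4. Rpusd3, a mitochondrial pseudouridine synthase, differed by 0.30 ± 0.16 (SE) and Dhx30, an RNA helicase, by -0.23 ± 0.17 (SE), KO minus WT. With batch as a block these became 0.10 ± 0.20 and -0.49 ± 0.17 (SE), neither passing after adjustment, and the median of the 29 was -0.20 with 23 lower. Of 16 translation factors 10 were higher, with a median of 0.04, and their array medians lay between -0.21 and 0.16. Of 19 mitochondrial tRNA synthetases 8 were higher, with a median of -0.04, and with batch as a block -0.13 with 6 higher. Iars2, which charges isoleucine tRNA, was at 9.64 to 9.91 on the KO arrays and 9.94 to 10.24 on the WT arrays and differed by -0.27 ± 0.09 (SE) (exact permutation p = 0.00794, adjusted limma p = 0.999). Its groups did not overlap, as in 0.717% of all genes, and with batch as a block the difference was -0.13 ± 0.11 (SE).

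Among genes that copy and transcribe mitochondrial DNA, 8 of 15 were higher, with a median of 0.03 (-0.08 with batch as a block) and array medians between -0.21 and 0.13. Twnk, the replicative helicase, differed by -0.25 ± 0.16 (SE). Of 10 regulators of mitochondrial biogenesis, 5 were higher and 5 lower, and 0 were called. Pprc1, a relative of PGC-1alpha, was at 7.64 to 7.88 on the KO arrays and 7.81 to 8.26 on the WT arrays and differed by -0.36 ± 0.11 (SE) (exact permutation p = 0.0238, adjusted limma p = 0.999), with batch as a block by -0.44 ± 0.14 (SE). Nrf1, the factor of the motif counted above, differed by -0.16 ± 0.09 (SE). The regulators' array medians lay between -0.22 on KO 3 and 0.20 on WT 3, with quartiles over the 10 genes of -0.55 to 0.28 on KO 3. On KO 2 and KO 5 they were 0.09 and -0.01.

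The respiratory chain and ATP synthase genes of the nucleus, whose products assemble with those the mitochondrial ribosome makes, followed a similar order of arrays. The median of 77 such genes was lowest on KO 5 (-0.46), KO 2 (-0.44) and WT 3 (-0.42) and highest on KO 3 (0.70). It stood at 0.40 on KO 1, where the ribosomal protein genes stood at 0.13. The median of 28 cytosolic ribosomal protein genes was lowest on KO 5 (-0.32) and KO 2 (-0.30) and highest on WT 1 (0.32). Both lists were taken by symbol from genes with a measured single-gene probe, so neither need be complete. The respiratory chain list includes Cox7a1 and Cox8b, also counted as brown fat markers, and the cytosolic list Rpl3l, at a low mean level (6.19). Over all 10 arrays the median difference, KO minus WT, was 0.12 for the respiratory chain genes and -0.12 for the cytosolic ribosomal protein genes, with 0 called in each. With batch as a block these medians were -0.26 and -0.37, with 69 of 77 and 25 of 28 genes lower in KO.

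**Figure D5:**
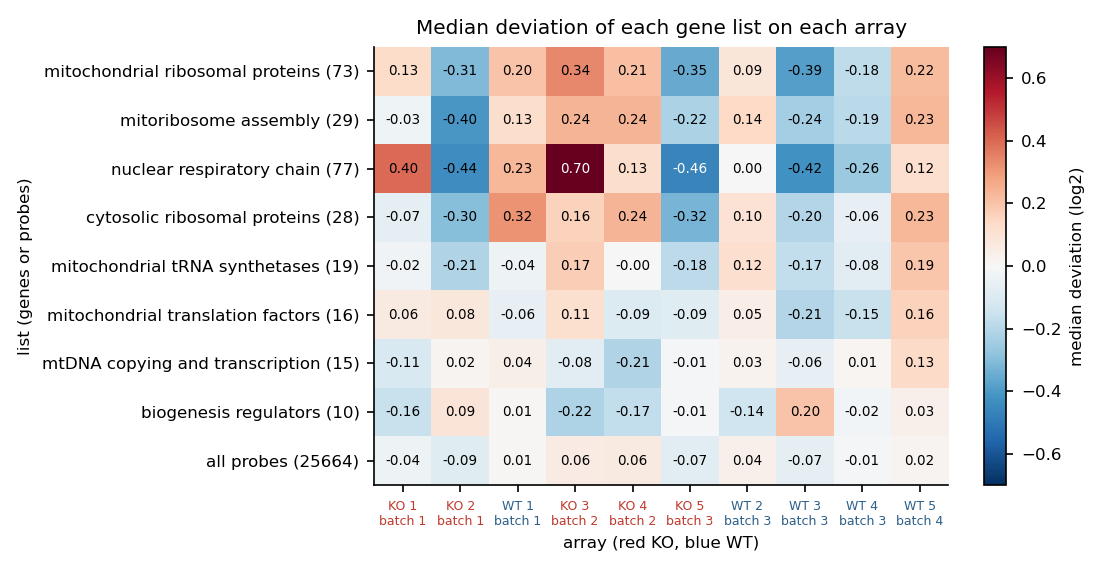
Median deviation from each gene's own 10-array mean, in log2 units, for the mitochondrial ribosomal protein genes, 7 other lists and all probes on each array, with the number of genes or probes in brackets. The first 5 lists are below 0 on KO 2, KO 5 and WT 3, and all probes stay between -0.09 and 0.06.

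Ucp1, which uncouples respiration in brown fat, was at 12.16, 7.29, 12.64, 6.66 and 7.33 on KO 1 to KO 5 and at 11.74, 8.06, 10.54, 6.18 and 9.17 on WT 1 to WT 5. KO 1, KO 3 and WT 1 were at 11.74 or above and every other array was at 10.54 or below. On KO 1, KO 3 and WT 1 in turn the ribosomal protein genes had a median deviation of 0.13, 0.34 and 0.20, and it was 0.21 on KO 4 and 0.22 on WT 5, where Ucp1 was at 6.66 and 9.17. Alb, made by liver, was at 6.53 to 14.13 on the KO arrays and 7.24 to 10.19 on the WT arrays, and Th, which makes L-DOPA in chromaffin cells, at 8.40 to 12.72 on the KO arrays and 11.82 to 12.70 on the WT arrays. The part of brown fat or liver RNA in the levels of the ribosomal protein genes was not tested.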

How the data were processed

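RNA of whole adrenal glands was labelled with biotin and read on Affymetrix arrays, 1 array per mouse. The authors deposited log2 values per probe made with RMA (submitters' processing notes), a method of background correction, quantile normalization and probe summary. Its version, and whether batches were handled, is not stated in the sources used here. Quantile normalization brings all arrays close to 1 distribution (array medians 7.17 to 7.25), so a change shared by most genes cannot be seen in full. RMA also compresses differences at low levels. There are no counts, so precision rests on the number of arrays, 5 a group.

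Of 35557 rows, 25689 had values on all arrays. After 25 control probes were left out, 25664 were tested, of which 20777 carry 1 gene symbol, 232 several and 4655 no symbol. Names came from the platform annotation. The genotypes were compared by limma (version 3.58.1, R 4.3.3; lmFit and eBayes, two-sided) with genotype as the only term. Adjustment was that of Benjamini-Hochberg across the 25664 probes, with a threshold of 0.05, and single genes were also tested by exact permutation. The analysis was tested on simulated data. The labels number the mice, so arrays were taken as separate animals. Alternatives were batch as a fixed or random block (consensus correlation 0.172), single batches, other scalings, filters, weights and arrays left out.

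The members and gene lists were chosen with earlier results of these data known. Named were the 6 genes of smallest p in each direction, the 3 of widest and of narrowest spread, genes fixed by role, up to 3 of smallest p per list, and Crem, Ucp1, Th and Alb. Clk1, Mrpl16, Mrpl50 and the genes named with batch as a block were chosen after their values were seen. Where a gene had several probes, the one with the highest mean was used. Promoters came from a RefSeq table (GRCm38.p6).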

Additional observations from a re-analysis of the deposited data

Results flagged for a closer look

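Mrps2 was at 8.78 on WT 3, while the other WT arrays lay between 9.23 and 9.36. The gap to the nearest array was 0.767 of the range of the group. Among genes of smallest p in the marker lists, Slc18a1, a chromaffin marker, was at 6.54 on KO 1 against 9.78 to 10.6 on the other KO arrays. Fga, a liver marker, was at 8.9 on KO 1 against 6.16 to 6.81. Nr5a1, a cortex marker, was at 11.02 on WT 4 against 10.3 to 10.5 on the other WT arrays. These were 4 of 166 groups of 5 arrays looked at (the genes of the naming rule in each genotype, and the medians of the subunits) with a gap beyond the 95% critical value for 5 values, and chance alone would flag about 1 in 20.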

How the results depend on the processing

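In the limma comparison of KO with WT, 0 of 73 genes were called under every alternative run. The median difference moved beyond 1 SD of the array medians within batch 1 (-0.319), and the large minus small difference without KO 1 and KO 3 (-0.0626, from 0.0067). With single arrays left out these ranged from -0.0982 to 0.083 and from -0.0184 to 0.0419. Without the 3 arrays of highest Clk1 level, on which the 73 genes were lowest, the median was 0.11. These arrays were chosen after seeing the data. Of 14 ribosomal protein genes (the 12 of smallest p, Mrps12 and Mrpl16), the sign turned with batch as a fixed block in Mrps35 (-0.148), Mrps10 (-0.113), Mrps18c (-0.0713), Mrpl30 (-0.192), Mrpl18 (0.0423), Mrps31 (0.204) and Mrpl16 (-0.15). Within batch 1 it turned in Mrps35 (-0.0696), Mrps10 (-0.293), Mrps18c (-0.139), Mrpl30 (-0.269), Mrpl18 (0.237), Mrps31 (0.325) and Mrpl16 (-0.157), and within batch 3 in Mrps35 (-0.217), Mrps18c (-0.0114), Mrpl30 (-0.125), Mrps31 (0.0958) and Mrpl16 (-0.143). Without KO 1 and KO 3 it turned in Mrps35 (-0.0678), Mrpl30 (-0.244) and Mrpl16 (-0.122), and without KO 2, KO 5 and WT 3 in Mrps12 (0.143). With single arrays left out, Mrpl16 ranged from -0.0106 (without KO 3) to 0.211, and the others kept their sign. Crem turned with batch as a fixed block (0.16). The cause was not tested. No paired analysis was possible because the replicate numbers follow the order of deposit and the labels pair no mice. RMA values carry no background level, so a floor cannot be told from a low level here.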
